A study of Mus musculus with 16 samples.

Results

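Among 8 hippocampi labelled Kcna1 knockout, 5 had a high level of Gfap messenger RNA and 3 had a level in or near the range of wild type animals. The 2 sets were selected on that measured level: a knockout library was put in the Gfap-high set if it held Gfap at 500 or more CPM of the column total (counts scaled to a common library size, here by the plain sum of a library's counts), and in the Gfap-low set otherwise. The 8 libraries come from a series of 16 hippocampal RNA sequencing libraries in 4 groups of 4 mice: wild type and Kcna1 knockout, each on a standard or a ketogenic diet.

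Gfap encodes glial fibrillary acidic protein, an intermediate filament protein of astrocytes. Astrocytes that respond to injury, inflammation or seizures thicken their filament network and change what they secrete, a state called reactive gliosis, and Gfap is its most used marker. In the epileptic hippocampus gliosis is known to go together with microglial activation and with altered neuropeptide and growth factor expression in neurons. Kcna1 encodes Kv1.1, a voltage-gated potassium channel subunit that limits neuronal excitability, and mice without it have spontaneous seizures. A ketogenic diet is rich in fat and poor in carbohydrate and is used as a treatment of epilepsy.

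**Figure D1:**
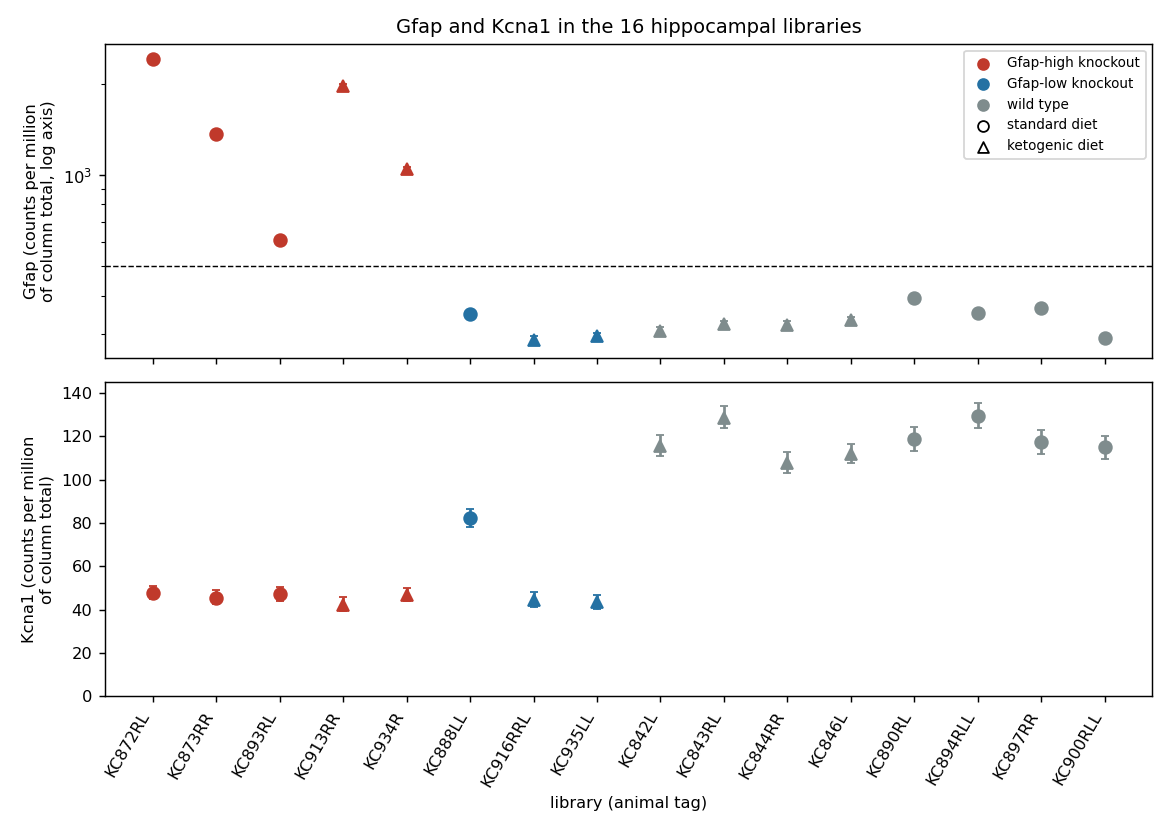
Gfap (top, log axis) and Kcna1 (bottom) as CPM of the column total in the 16 libraries. Colour gives the set, circles the standard diet and triangles the ketogenic diet, bars are 95% Wilson intervals of counting error, and the dashed line is the 500 that set the Gfap-high knockout libraries apart. The low knockout library KC888LL is the knockout library with the highest Kcna1.

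The Gfap-high set held KC872RL, KC873RR and KC893RL from knockout mice on the standard diet, and KC913RR and KC934R from knockout mice on the ketogenic diet. The Gfap-low set held KC888LL on the standard diet, and KC916RRL and KC935LL on the ketogenic diet. Gfap stood at 2402, 1367, 612, 1968 and 1049 CPM of the column total in the Gfap-high libraries, in the order just given. It stood at 349, 287 and 294 in the Gfap-low libraries. KC893RL with 612 was the library just inside the threshold and KC888LL with 349 the one just outside, and 0 of the 8 wild type libraries reached 500. In this way 3 of 4 libraries labelled knockout on the standard diet and 2 of 4 on the ketogenic diet were Gfap-high.

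Kcna1, the targeted gene (chr6:126640397-126646384), was lower in each knockout library than in each wild type library. It stood at 46.4, 44.6, 47.0, 43.4 and 47.2 CPM in the Gfap-high libraries, where CPM from here on are scaled with TMM factors. The Gfap-low libraries KC916RRL and KC935LL, with 44.6 and 43.5 CPM, were like them. KC888LL was not: it had 82.0 CPM, between the other knockout libraries and the wild type range of 107 to 130 CPM. On the scale of the column total its Kcna1 level was 82.2 CPM, with a 95% Wilson interval of 78.1 to 86.4, which covers counting error only. KC888LL is therefore called below "the library labelled knockout", and the counts of genes that separate the sets and the tests of genotype and diet are also given without it. It is the only Gfap-low library on the standard diet, so any Gfap-high against Gfap-low difference within that diet compares 3 libraries with this one and cannot be given without it.

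Total counts were 13440230 to 22309504 per library, and at least 99.8% of them fell in the 17469 genes tested. Sex and age were not given in the labels, and no source used here says which part of Kcna1 was deleted. Y-linked Ddx3y was expressed in the Gfap-high libraries KC872RL and KC873RR and in 2 wild type libraries, while the other 6 knockout libraries had Xist at 778 to 833 CPM. The Gfap-high set thus holds every knockout library with Y-linked expression, and values without these 2 libraries are given beside several of the lists below. Markers of dentate granule and pyramidal cells were present throughout, with Prox1 at 108 to 209 CPM over the wild type libraries. Markers of choroid plexus, a structure next to the hippocampus, summed to 104 to 875 CPM in the Gfap-high, 139.8 to 202 in the Gfap-low and 130.5 to 1670.5 in the wild type libraries.

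All Gfap-high against Gfap-low values below are descriptions. The libraries were sorted by a measured gene, so no p is given for any difference between the sets. A difference is the mean log2 CPM of the 5 Gfap-high libraries minus that of the 3 Gfap-low libraries, and a gene does not overlap if all 5 lie on one side of all 3. Over all tested genes, 963 (5.51%) were higher without overlap and 959 (5.49%) lower without overlap, and the median difference was 0.0013. Each count of list genes without overlap below is to be read beside these shares. With at least a 2-fold difference besides, 147 genes (0.841%) were higher and 46 (0.263%) lower. Without KC888LL these counts were 245 and 72, and the differences of the genes named by size were 0.839 to 1.17 times those with it. Genes are named from these by size, as the 15 largest differences in each direction among genes that average at least 2 CPM over the 8 knockout libraries and have the same sign on both diets, and from 26 lists of marker and pathway genes. Of the higher genes 6 averaged under 2 CPM in the Gfap-low set, Gal, Slc6a5, Slc43a3, Cd1d1 and Cthrc1 among them. Of the lower genes 4 averaged under 2 CPM in the Gfap-high set (Rtl3, Ngb, Acot5 and Nek10). All of these passed the minimum only through the set in which they are high. A level in whole tissue does not tell more cells of a type from more RNA per cell.

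The RefSeq promoter windows (250 bases before to 50 after the start, build GRCm38.p6) of the named genes were searched on both strands for 5 motifs. Of the 30 named genes, 20 had a window, 26 windows in all. A STAT motif, spelled TTCNNNGAA, was in the windows of Gfap and Fam160a1 (2 of 26 windows, and 8.30% of all 32851 windows). An AP-1 motif, spelled TGACTCA or on the other strand TGAGTCA, was in windows of Slc6a5, Gpnmb and Acot5 (4 of 26 windows, of which the 2 of Acot5 are 1 base apart and hold the same match, and 5.20% of all windows). An E-box, CACGTG, was in the window of Ntf3 (7.15% of all windows), while the C/EBP motif TTGCGCAA (0.183% of all) and the CRE TGACGTCA (1.79% of all) were in 0 of the 26. Shown are the windows of Gfap (chr11:102897151-102897450, minus strand), Slc6a5 (chr7:49910049-49910348, plus strand) and Gpnmb (chr6:49036268-49036567, plus strand). These genes were higher in the Gfap-high set, Gfap by the choice of the sets. The STAT motif was also in the window of Fam160a1 and the AP-1 motif in those of Acot5. Both of these genes were lower in the Gfap-high set, and their windows are not shown. Whether a factor acts at any of these windows was not tested. Capitals mark the motif, and a match is a description of letters, not of a bound site.
Gfap: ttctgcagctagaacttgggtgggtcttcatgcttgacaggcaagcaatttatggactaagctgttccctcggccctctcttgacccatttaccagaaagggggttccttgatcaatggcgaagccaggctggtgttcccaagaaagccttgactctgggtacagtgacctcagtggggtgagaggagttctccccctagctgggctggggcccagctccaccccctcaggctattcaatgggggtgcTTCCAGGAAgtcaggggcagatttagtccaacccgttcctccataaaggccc
Slc6a5: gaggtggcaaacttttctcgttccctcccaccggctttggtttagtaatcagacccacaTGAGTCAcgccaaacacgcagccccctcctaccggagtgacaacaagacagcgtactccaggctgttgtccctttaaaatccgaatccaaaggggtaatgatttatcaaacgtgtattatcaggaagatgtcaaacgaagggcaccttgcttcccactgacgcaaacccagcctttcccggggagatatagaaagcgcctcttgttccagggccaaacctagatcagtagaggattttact
Gpnmb: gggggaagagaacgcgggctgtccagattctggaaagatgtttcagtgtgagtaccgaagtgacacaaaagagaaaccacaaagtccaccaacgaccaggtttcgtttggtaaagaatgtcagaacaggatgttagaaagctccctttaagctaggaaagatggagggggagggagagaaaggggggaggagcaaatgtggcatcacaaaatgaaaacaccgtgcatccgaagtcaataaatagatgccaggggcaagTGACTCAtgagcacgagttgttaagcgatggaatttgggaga

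The genes that separated the sets most in the higher direction included the filament gene Vim and the neuropeptide genes Gal, Penk and Npy. Gfap, also a filament gene, was among them by choice, since it set the split. In all, 82 of the 147 higher genes (0.469% of all tested genes) had all 5 Gfap-high libraries above all 8 wild type libraries as well, and 67 of the 147 had all 3 Gfap-low libraries inside the wild type range. Gfap itself (chr11:102887336-102900912, minus strand) stood at 2327, 1340.0, 611, 2018 and 1059 CPM in the Gfap-high libraries against 348, 288 and 295 CPM in the Gfap-low libraries, with 294 to 390 CPM in wild type. Below, values are always in the order KC872RL, KC873RR, KC893RL, KC913RR, KC934R, then KC888LL, KC916RRL, KC935LL.

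Vim (chr2:13573927-13582826), which encodes vimentin, the other main filament protein of reactive astrocytes, had 245, 81.9, 51.6, 128 and 71.2 CPM against 31.1, 22.3 and 27.02 CPM. Serpina3n, a secreted protease inhibitor that is a standard marker of reactive astrocytes, had 260.1, 157, 85.5, 179 and 125 CPM against 40.7, 48.3 and 45.9 CPM. Both genes had their lowest Gfap-high value in KC893RL, the library with the lowest Gfap of that set, and neither overlapped with the wild type ranges of 23.7 to 35.8 and 37.6 to 49.5 CPM. The differences were 1.89 for Vim and 1.75 for Serpina3n on the log2 scale. Osmr, a receptor subunit for oncostatin M, had 12.9, 14.7, 7.23, 24.5 and 6.41 CPM against 4.004, 5.91 and 4.405 CPM, a difference of 1.29. Aspg, an asparaginase on the pan-reactive list, had 10.97, 10.2, 8.56, 19.3 and 6.91 CPM against 3.84, 3.37 and 2.94 CPM, and Cd44, a hyaluronan receptor, 16.1, 12.8, 6.79, 47.1 and 5.03 CPM against 4.76, 3.51 and 3.82 CPM. In both of these KC913RR was the highest library and KC934R the lowest of the Gfap-high set, and for Cd44 KC934R lay inside the wild type range of 2.73 to 5.34 CPM.

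Of the 13 genes of the pan-reactive astrocyte list 10 were tested, and 6 of them were higher without overlap and 0 lower, with a median difference of 1.45 (0.0013 over all genes). The list includes Gfap, which chose the sets, and the median of the other 9 genes was 1.29, with 5 of the 9 higher without overlap. With Gfap the median was 1.27 on the standard and 1.78 on the ketogenic diet, and 1.37 without the 2 libraries with Y-linked expression. The mean log2 CPM of the list was 4.95, 4.55, 3.94, 5.71 and 4.04 in the Gfap-high libraries, 3.39, 3.28 and 3.31 in the Gfap-low libraries and 3.15 to 3.55 in wild type. Over the 9 genes other than Gfap the mean was 4.26, 3.898, 3.35, 5.12 and 3.37 in the Gfap-high, 2.82, 2.73 and 2.77 in the Gfap-low and 2.57 to 2.98 in the wild type libraries. With or without Gfap, the Gfap-low libraries lay inside the wild type range and each Gfap-high library above it. A list often used for inflammatory, A1 reactivity had 3 of 11 tested genes higher without overlap (Ggta1, Gbp2 and H2-D1) and 0 lower. Over all tested genes the shares were 5.51% and 5.49%. The means of Iigp1, Amigo2 and Fkbp5 went the other way, with overlap and differences of -0.84, -0.41 and -0.16. The median of the list was 0.48, which was 0.71 on the standard and -0.03 on the ketogenic diet. It was 0.02 without the 2 libraries with Y-linked expression and 0.23 without KC872RL alone. The A2 list, described after ischemia, had 3 of 11 higher without overlap (Clcf1, Emp1 and Cd14) and 0 lower. Its median was 0.91, which was 0.36 on the standard and 1.13 on the ketogenic diet and 0.41 without KC913RR. Tgm1 had the largest difference of that list (2.99) but overlapped through KC934R. It had 8.25, 5.19, 1.14, 14.1 and 0.332 CPM against 0.162, 0.224 and 0.587 CPM.

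Hspb6, Flnc, Cthrc1 and Bmp3 were also among the 15 largest differences in the higher direction. Hspb6 (chr7:30552178-30555443), a small heat shock protein, had 10.7, 6.002, 4.88, 11.4 and 7.46 CPM against 2.06, 1.87 and 2.35 CPM. Flnc (chr6:29433256-29461883), which encodes the actin cross-linker filamin C, had 13.6, 11.3, 7.61, 26.1 and 5.304 CPM against 3.895, 2.47 and 2.35 CPM, and KC934R was close to the wild type maximum in the range 2.14 to 5.09 CPM. Cthrc1 (chr15:39076932-39087121), a secreted glycoprotein of matrix repair, had 5.53, 2.04, 7.17, 2.54 and 2.38 CPM against 0.757, 0.673 and 1.23 CPM. The highest library differed between the 3 genes: KC913RR for Hspb6 and Flnc, and KC893RL for Cthrc1. Bmp3 (chr5:98854415-98884396), a secreted member of the bone morphogenetic protein family, had 33.95, 25.5, 56.01, 75.5 and 47.8 CPM against 7.52, 7.25 and 5.81 CPM, a difference of 2.69, and its wild type range was 4.69 to 16.7 CPM.

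**Figure D2:**
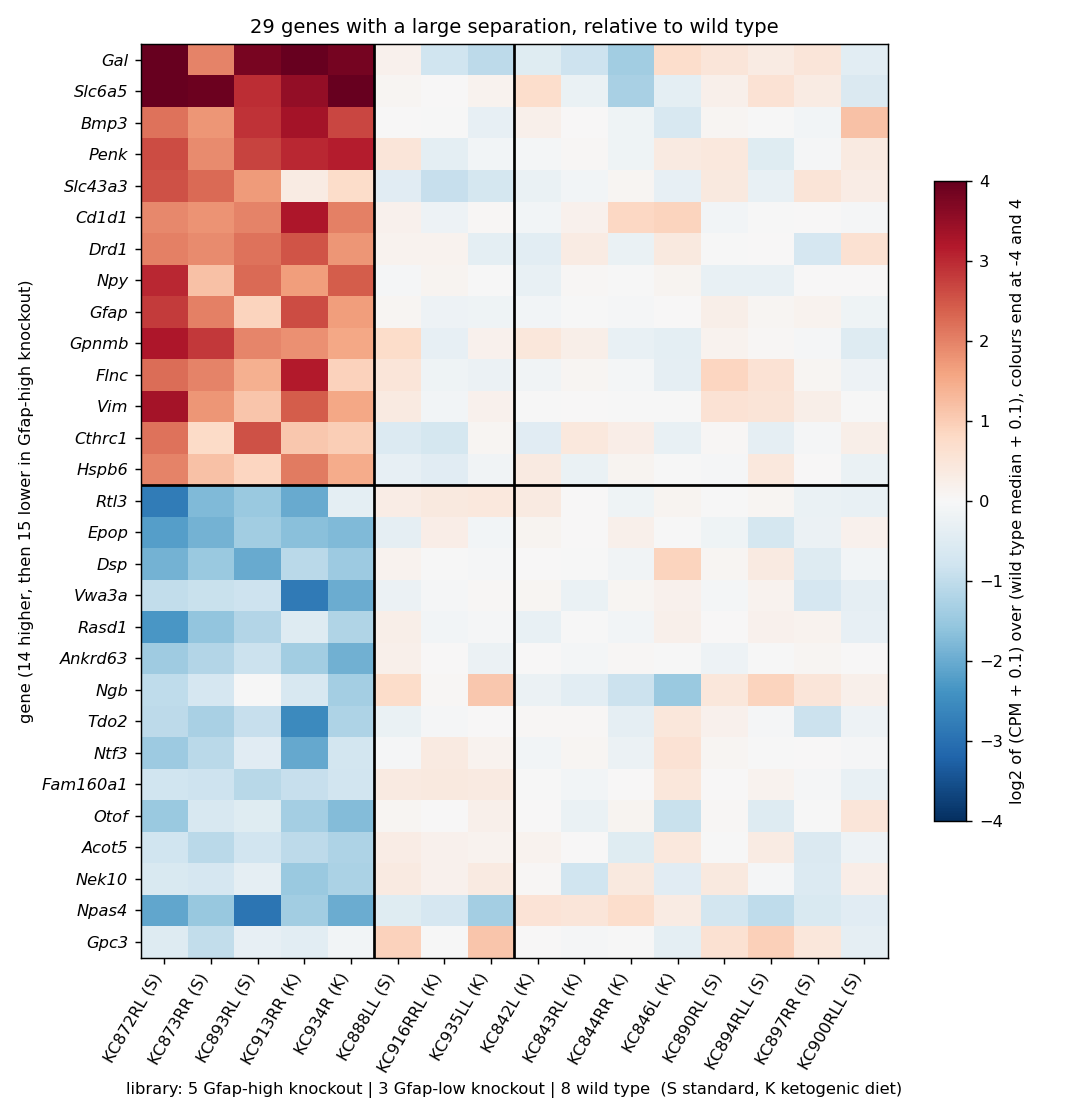
Of the 30 named genes, 29 (rows, 14 higher then 15 lower in the Gfap-high knockout) in the 16 libraries (columns, S standard and K ketogenic diet). Colour is log2 of CPM plus 0.1 over the wild type median plus 0.1, ending at -4 and 4. For 14 of these 29 genes all 3 Gfap-low libraries lie inside the wild type range. Gal is palest in KC873RR among the Gfap-high columns.

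Homeostatic astrocyte genes did not move as a block. Of 18 such genes 2 were higher without overlap and 0 lower, beside 5.51% and 5.49% of all tested genes. The median difference was 0.07, or -0.05 without the libraries with Y-linked expression. The 2 were Aqp4, the water channel of astrocyte end feet, with 387, 284, 176, 244 and 229.9 CPM against 147, 107 and 115 CPM, and Kcnj10, the inwardly rectifying potassium channel Kir4.1, with 352, 267, 204, 231 and 231 CPM against 196, 189 and 189 CPM. KC872RL was highest for both. KC893RL, with 176 CPM of Aqp4, lay inside the wild type range of 121 to 189.8 CPM, and the Gfap-low libraries KC916RRL and KC935LL lay below it. Glutamine synthetase, Glul, overlapped, with 1504, 1491, 1353, 639.7 and 1075 CPM against 1241, 1392 and 1321 CPM, and so did the gap junction gene Gja1, with 392.28, 353, 248, 126 and 297 CPM against 251, 232 and 219 CPM. In both the ketogenic library KC913RR had the lowest value of the 8 knockout libraries, while its Gfap was the second highest.

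The largest difference was that of a neuropeptide gene, and 2 more were among the 15. Gal (chr19:3409915-3414544), which encodes galanin, a peptide with anticonvulsant action in the hippocampus, had 15.6, 2.16, 7.74, 8.83 and 8.01 CPM against 0.541, 0.224 and 0.176 CPM, and 747 counts in all in the 5 libraries against 16 in the 3. Its difference was 4.17, 3.32 on the standard and 4.75 on the ketogenic diet. Penk (chr4:4133531-4138819), the enkephalin precursor, had 82.3, 49.7, 87.98, 108 and 119 CPM against 18.7, 10.2 and 12.4 CPM, and Npy (chr6:49822710-49829507), neuropeptide Y, 153, 42.4, 91.2, 59.9 and 100.3 CPM against 18.3, 20.04 and 18.4 CPM. The wild type ranges were 0.118 to 0.8198 CPM for Gal, 9.63 to 17.9 for Penk and 15.1 to 20.2 for Npy, below every Gfap-high library. The order of the Gfap-high libraries was not that of Gfap: KC873RR, whose Gfap was in the middle of the set, was lowest for all 3 peptides, and KC893RL, with the lowest Gfap of the set, was the middle one for Penk and Npy.

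In the list of neuropeptide and growth factor genes known to be regulated by seizures, 8 of 18 tested genes were higher without overlap and 1 lower, with a median of 0.66. The median was 0.14 on the standard and 1.20 on the ketogenic diet, and 0.81 without the libraries with Y-linked expression. Besides Gal, Penk and Npy the higher genes were Acvr1c, Bdnf, Scg2, Crh and Tac2, and the lower one was Cck. Acvr1c, an activin receptor, had 53.4, 43.1, 53.3, 94.996 and 64.5 CPM against 24.9, 25.4 and 27.1 CPM, and Scg2, a granin of dense core vesicles, 391.98, 246, 304, 358 and 289 CPM against 211, 175 and 176 CPM. Bdnf, a neurotrophin, had 56.8, 51.5, 56.8, 154 and 71.4 CPM against 42.7, 33.5 and 32.9 CPM, and KC913RR stood more than 2-fold above the other knockout libraries. Cck, cholecystokinin, had 126, 129, 131, 165 and 152 CPM against 195, 181 and 171 CPM. Somatostatin, Sst, which marks interneurons that often also make neuropeptide Y, overlapped, with 131, 67.2, 108, 97.1 and 103 CPM against 98.1, 87.8 and 74.2 CPM, and so did dynorphin, Pdyn, with 10.2, 11.5, 7.99, 5.75 and 9.23 CPM against 13.5, 9.57 and 9.22 CPM.

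Receptor and transporter genes were also among the 15. Drd1 (chr13:54051183-54055705), the D1 dopamine receptor, had 17.6, 16.1, 19.5, 25.1 and 14.9 CPM against 4.71, 4.79 and 3.23 CPM, with 2.64 to 6.66 CPM in wild type. It was the 1 gene of 8 on the striatum list that did not overlap, and that list summed to 83.4 to 125 CPM in the Gfap-high, 65.1 to 88.2 in the Gfap-low and 67.0 to 93.3 in the wild type libraries. Slc6a5 (chr7:49910146-49963856), the glycine transporter GlyT2 of glycinergic neurons, had 5.88, 3.67, 1.84, 2.74 and 5.19 CPM against 0.162, 0.1496 and 0.176 CPM, the latter from 8 counts in all. Its difference was 3.72, 3.66 on the standard and 3.80 on the ketogenic diet. Slc43a3 (chr2:84936579-84958509), a purine nucleobase transporter, had 5.94, 4.89, 3.299, 1.204 and 1.602 CPM against 0.649, 0.449 and 0.529 CPM. Here the Gfap-low libraries lay below the wild type range of 0.729 to 1.39 CPM and KC913RR inside it. Cd1d1 (chr3:86995834-86999441), which presents lipid antigens, had 2.62, 2.39, 2.73, 6.69 and 2.82 CPM against 0.703, 0.523 and 0.646 CPM.

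**Figure D3:**
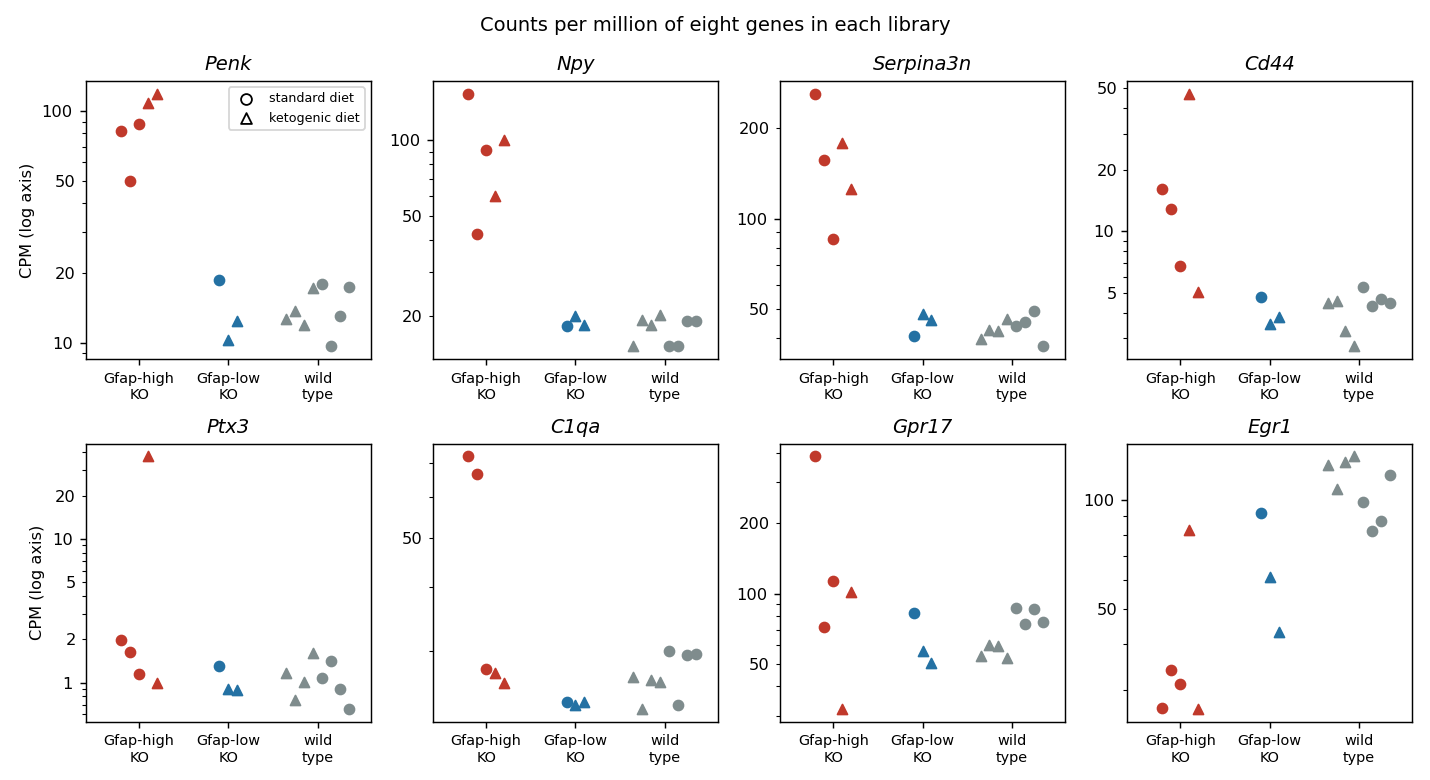
CPM on log axes of 8 genes in the 5 Gfap-high knockout, 3 Gfap-low knockout and 8 wild type libraries, with circles for the standard and triangles for the ketogenic diet. Penk, Npy and Serpina3n separate all Gfap-high libraries from the rest. Ptx3 is high in KC913RR (37.5 CPM), Gpr17 in KC872RL (387 CPM), C1qa in KC872RL and KC873RR, and Egr1 is below all wild type libraries in 4 of the 5 Gfap-high libraries and in KC913RR below those of its own diet. The Gfap-low libraries KC916RRL and KC935LL are also below all wild type libraries for Egr1.

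The genes named in the lower direction included Dsp and Tdo2 of dentate granule cells, the activity-induced Npas4 and the neurotrophin gene Ntf3. Of the 46 lower genes, 18 (0.103% of all tested genes) had all 5 Gfap-high libraries below all 8 wild type libraries too, and 25 had all 3 Gfap-low libraries inside the wild type range. Dsp (chr13:38151294-38198577), which encodes desmoplakin, a desmosome protein that marks dentate granule cells, had 28.6, 37.6, 26.1, 50.6 and 39.1 CPM against 118, 106 and 102 CPM, with 74.97 to 198 CPM in wild type. Tdo2 (chr3:81957090-81976202), tryptophan dioxygenase, another gene of dentate granule cells, had 2.82, 2.33, 3.04, 0.937 and 2.43 CPM against 4.87, 5.76 and 5.93 CPM. Ntf3 (chr6:126101412-126166910), neurotrophin-3, had 2.36, 3.09, 4.88, 1.54 and 3.98 CPM against 6.49, 8.53 and 7.4002 CPM. All 3 were lower in every Gfap-high library than in every wild type library. Ntf3 lies on the chromosome of the targeted gene and near it.

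The score of the dentate granule list (mean log2 CPM) was 5.23 to 5.52 in the Gfap-high and 5.75 to 5.81 in the Gfap-low libraries, all but KC913RR inside the wild type range of 5.25 to 6.11. Of its 12 genes 9 had a lower mean in the Gfap-high set. The list had 1 of 12 genes higher without overlap (C1ql2), 2 lower (Dsp and Tdo2), beside 5.51% and 5.49% of all tested genes, and a median of -0.22, or -0.13 without KC934R. C1ql2, a synaptic protein of mossy fibers, had 81.1, 76.9, 66.2, 90.8 and 74.5 CPM against 38.4, 51.3 and 48.3 CPM, and the Gfap-low libraries KC916RRL and KC935LL also stood above the wild type range of 31.2 to 42.4 CPM. Calb1, calbindin, overlapped, with 73.5, 80.7, 74.5, 125 and 97.02 CPM against 129, 115 and 113 CPM, KC913RR alone among the Gfap-high libraries reaching the Gfap-low values. On the CA1 list 1 of 9 genes was higher (Man1a) and 1 lower (Fibcd1, with 62.4, 103, 73.3, 93.99 and 77.4 CPM against 133, 157 and 132 CPM). On the CA3 list 0 of 10 were higher and 1 lower (Cdh24). The shares over all tested genes were 5.51% and 5.49%. The medians of the CA1 and CA3 lists were 0.12 and -0.12, and without KC935LL they were -0.03 and -0.02. Without KC916RRL the CA1 median was 0.23, and without KC888LL the CA3 median was -0.19. Without the libraries with Y-linked expression the CA3 median was -0.01.

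Npas4 (chr19:4984355-4990316), a transcription factor induced by neuronal activity, had 3.27, 4.89, 1.78, 5.35 and 3.54 CPM against 10.2, 8.82 and 5.46 CPM and 7.002 to 23.2 CPM in wild type. Rasd1 (chr11:59963181-59964944), a small GTPase first found as a glucocorticoid-induced gene, had 5.78, 9.85, 13.2, 20.9 and 12.8 CPM against 35.2, 27.7 and 29.01 CPM. KC893RL was the lowest library for Npas4 and KC872RL for Rasd1. In the list of immediate early genes, which neurons switch on within minutes of firing, 0 of 19 were higher without overlap and 4 were lower (Npas4, Nr4a3, Dusp1 and Btg2), with a median of -0.31. Arc had 16.05, 31.9, 20.04, 75.996 and 27.2 CPM against 68.5, 69.2 and 42.99 CPM and Egr1 26.7, 34.1, 31.2, 82.5 and 26.6 CPM against 92.1, 61.2 and 43.4 CPM, so that both overlapped through KC913RR alone among the Gfap-high libraries. The list median was -0.49 on the standard diet and 0.00 on the ketogenic diet, and -0.12 without the libraries with Y-linked expression. It was -0.11, -0.10, -0.16 and -0.16 without KC872RL, KC934R, KC888LL and KC916RRL in turn. The wild type libraries differed by diet for both genes, with 73.2 to 89.6 CPM of Arc on the standard and 126 to 150.4 on the ketogenic diet, and 81.8 to 116.5 and 106.7 to 131 CPM of Egr1. All 5 Gfap-high libraries, KC913RR included, were below each wild type library of their own diet for both genes. So were the Gfap-low libraries KC916RRL and KC935LL for both genes and KC888LL for Arc. Levels under the wild type range were thus also seen in the Gfap-low set.

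The remaining lower genes were of varied kinds. Epop (chr11:97627389-97629702), a partner of the Polycomb complex PRC2, had 4.43, 5.59, 7.93, 6.49 and 6.08 CPM against 16.3, 25.3 and 19.3 CPM, and Rtl3 (chrX:106837082-106840644), a gene derived from a retrotransposon, 0.352, 0.816, 1.01, 0.669 and 2.27 CPM against 3.73, 3.96 and 4.11 CPM. Fam160a1 (chr3:85660061-85817291) varied least within the sets, with 6.39, 6.24, 5.14, 5.95 and 6.52 CPM against 14.4, 14.8 and 14.6 CPM. The 2 sets were thus more than 2-fold apart with little spread in either. Otof (chr5:30367062-30461932), the calcium sensor otoferlin, had 3.97, 7.28, 8.12, 4.42 and 3.37 CPM against 12.2, 11.6 and 13.2 CPM, and Vwa3a (chr7:120739318-120805742) 7.897, 8.39, 8.88, 2.14 and 3.92 CPM against 13.3, 15.3 and 16.2 CPM. Ankrd63 (chr2:118699103-118703963) had 8.802, 10.6, 13.2, 9.098 and 6.24 CPM against 27.5, 24.4 and 20.6 CPM. For Ankrd63 all Gfap-high libraries were below wild type, while for Otof they overlapped its range of 6.103 to 15.9 CPM. Acot5 (chr12:84069325-84076020), an acyl-CoA thioesterase, Nek10 (chr14:14803415-15012059), a kinase, Ngb (chr12:87097531-87102539), neuroglobin, and Gpc3 (chrX:52272426-52613950), a glypican, differed by -1.17, -1.16, -1.35 and -1.14 on the log2 scale.

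As mean log2 CPM over a list, microglial genes separated the 2 Gfap-high libraries with Y-linked expression from the other 3 more than they separated the sets. Of 14 homeostatic microglia genes 1 (Fcrls) was higher without overlap, beside 5.51% of all tested genes. The median was 0.31, which was 0.62 on the standard and -0.09 on the ketogenic diet and -0.04 without KC872RL and KC873RR. The list summed to 285 to 591 CPM in the Gfap-high, 283 to 319 in the Gfap-low and 312 to 339 in the wild type libraries. Csf1r, the receptor on which microglia depend, had 136, 128, 67.999, 60.5 and 69.1 CPM against 67.6, 62.7 and 60.4 CPM. KC872RL and KC873RR were about as high as each other and the other 3 Gfap-high libraries were in or near the wild type range of 65.3 to 73.1 CPM.

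In the list of disease-associated microglia genes 6 of 15 tested genes were higher without overlap, with a median of 0.65 that was 0.16 without KC872RL and KC873RR. Gpnmb (chr6:49036546-49070929), a glycoprotein of phagocytic microglia and macrophages, had 17.9, 13.6, 7.36, 6.62 and 5.52 CPM against 3.08, 1.42 and 2.06 CPM, and every Gfap-high library was above the wild type maximum in the range 1.24 to 2.54 CPM. Spp1, osteopontin, had 22.1, 13.1, 0.444, 1.27 and 0.332 CPM against 0.866, 0.374 and 0.705 CPM, so that it was high in KC872RL and KC873RR and overlapped in the others. Wild type libraries KC846L and KC890RL, which also expressed Ddx3y, had 0.46 and 0.50 CPM of Spp1. The lysosomal protease gene Ctsd had 430.4, 448, 193, 177 and 186 CPM against 158, 155 and 151 CPM and Cd68, a lysosomal membrane protein of phagocytes, 14.1, 15.5, 6.91, 5.82 and 4.86 CPM against 4.49, 3.07 and 4.35 CPM. Some genes too low to be tested were highest in KC872RL and KC873RR. Itgax had 42 and 60 counts in KC872RL and KC873RR and at most 8 in any other library. Cst7 had 20 and 70 against at most 4, and Ccl3 19 and 17 against at most 3. Lcn2, lipocalin-2 of the pan-reactive astrocyte list, had 47 and 68 counts there and at most 8 elsewhere. Others were not: C5ar1 had 5 and 2 counts in KC872RL and KC873RR and 13 and 11 in KC913RR and KC934R. Ccl12 had 6 and 6 in KC872RL and KC873RR and 20 in KC913RR. The part that sex-linked differences between animals or the diet had in the high values of KC872RL and KC873RR was not tested.

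Complement and antigen presentation genes included some that were high mainly in KC872RL and KC873RR and some that were above wild type in all 5 Gfap-high libraries. Of 11 complement genes 5 were higher without overlap (C4b, C1qb, C1qc, C1ra and C1qa), 0 lower, with a median of 0.87 that was 0.21 without KC872RL and KC873RR. C4b, a complement component made by reactive astrocytes, had 119, 129, 67.6, 62.3 and 50.7 CPM against 30.9, 28.2 and 31.4 CPM, and all 5 Gfap-high libraries were above its wild type range of 24.4 to 38.1 CPM. C1qa, made by microglia, had 72.1, 66.6, 27.7, 27.2 and 26.02 CPM against 23.9, 23.5 and 23.9 CPM, and KC893RL, KC913RR and KC934R lay inside the wild type range of 23.1 to 29.96 CPM. Among 15 interferon and MHC class I genes 7 were higher without overlap and 0 lower, with a median of 0.64, and 0.34 without the 2 libraries. Ifitm3 had 8.199, 6.002, 5.01, 8.23 and 5.52 CPM against 2.81, 2.54 and 2.06 CPM and Ifit3 8.15, 7.11, 5.77, 4.15 and 5.03 CPM against 2.38, 2.62 and 2.11 CPM. Both are antiviral genes induced by interferon, and for both all Gfap-high libraries were above wild type. H2-K1, a class I heavy chain, had 18.7, 17.02, 8.18, 7.16 and 7.73 CPM against 6.28, 5.38 and 6.11 CPM, although reads of class I genes can be split among near-identical copies.

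Of 12 tested cytokine signalling genes 3 were higher (Cntf, Osmr and Tgfbr2) and 1 lower (Cxcl12), beside 5.51% and 5.49% of all tested genes, with a median of 0.45, or 0.23 without KC913RR. Il6, Il1b, Tnf and Ccl2 were too low to test, at no more than 7 counts in any library. Of 20 matrix genes 4 were higher (Fn1, Sparc, Vcan and Col4a2) and 1 lower (Bcan), with a median of 0.30. The means of 18 of the 20 were higher in the Gfap-high set, and the list score was 5.34 to 5.70 in the Gfap-high, 5.15 to 5.29 in the Gfap-low and 4.99 to 5.33 in the wild type libraries, without overlap. Sparc, a matricellular protein, had 459, 418, 342, 302 and 338 CPM against 246, 266 and 271 CPM, and Bcan, brevican of perineuronal nets, 268, 264, 238, 195 and 253 CPM against 284, 316 and 293 CPM. Hmox1, heme oxygenase, was 1 of 2 genes of 13 on the metallothionein and Nrf2 list to be higher, with 8.95, 6.18, 5.58, 6.82 and 5.25 CPM against 3.3003, 2.09 and 2.82 CPM, while 1 (Gstm1) was lower. The interneuron list had 3 of 14 higher (Npy, Gad2 and Reln) and 3 lower (Cck, Erbb4 and Kcnc1). The neurogenesis list had 2 of 15 higher (Mki67 and Sox11) and 1 lower (Ccnd2). Over all tested genes the shares were 5.51% and 5.49%.

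**Figure D4:**
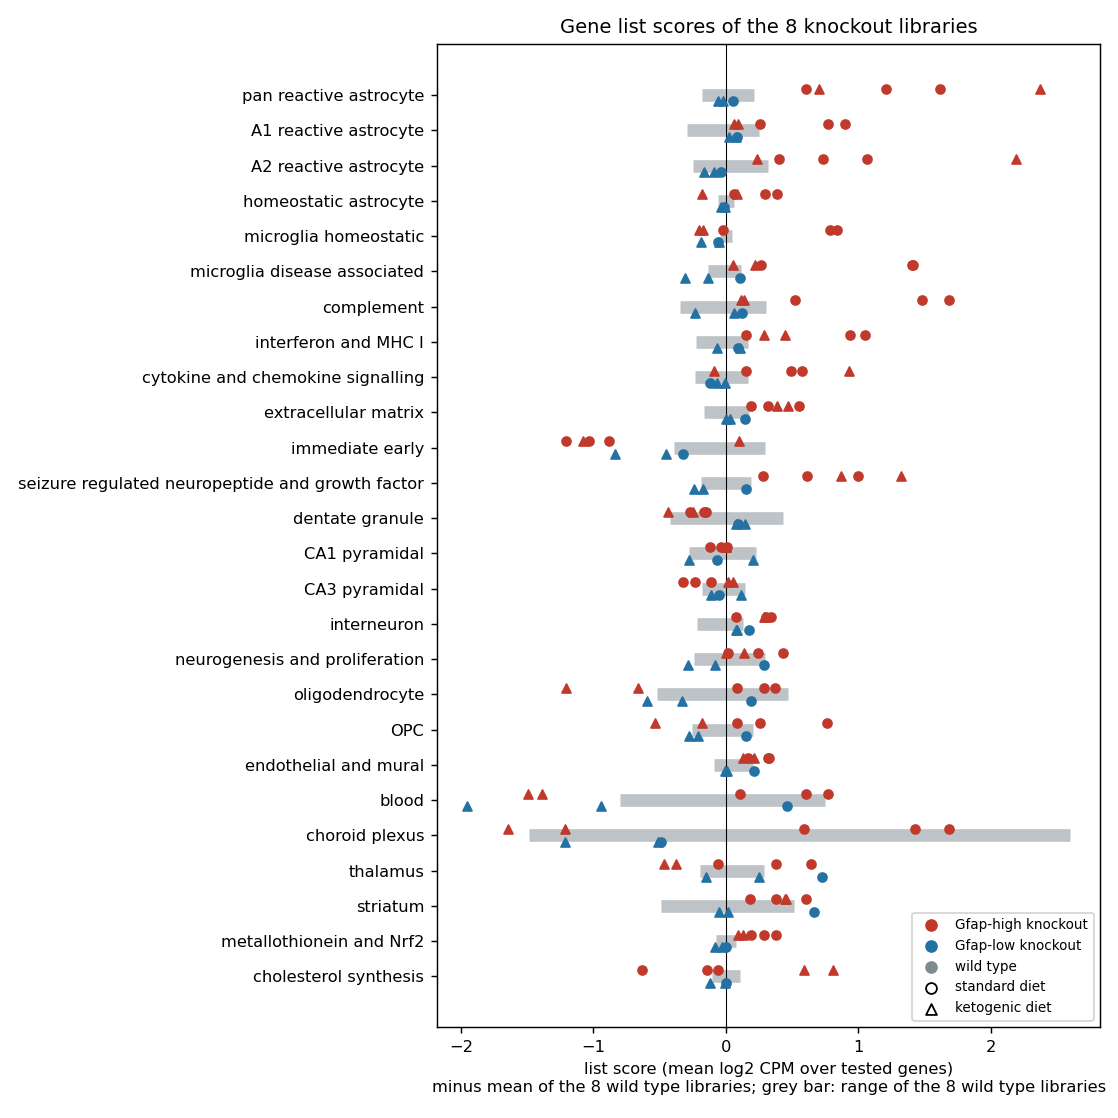
Scores of the 26 gene lists in the 8 knockout libraries, as mean log2 CPM over the tested genes of a list minus the mean of the 8 wild type libraries. Red points are Gfap-high, blue points Gfap-low, circles standard and triangles ketogenic diet, and grey bars the range of wild type. The pan-reactive astrocyte scores of the 5 Gfap-high libraries lie above the grey bar, while for cholesterol synthesis the 2 ketogenic Gfap-high libraries lie above the bar and KC873RR is lowest.

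Lists for other cell types were looked at for mixed tissue. Oligodendrocyte genes had 0 of 14 without overlap in either direction and a median of 0.00, or -0.30 without the libraries with Y-linked expression. With 1 library left out the median ranged from -0.20 to 0.26, and was 0.25 without KC888LL. The sum of these genes was 2116 to 6214 CPM in the Gfap-high and 3291 to 5706 in the Gfap-low libraries, with the ketogenic libraries of both sets at the low end. Mbp had 2040.1, 2306, 2328, 866 and 1096 CPM against 2273, 1374 and 1606 CPM. Hemoglobin genes likewise followed diet more than Gfap, as Hba-a1 had 46.4, 56.99, 32.7, 11.7 and 8.23 CPM against 46.5, 18.2 and 8.99 CPM. On the choroid plexus list 1 of 10 genes (Prlr) was higher without overlap, beside 5.51% of all tested genes. Ttr, transthyretin, the most abundant of them, had 320.1, 167, 508, 3.95 and 21.6 CPM against 24.4, 17.2 and 31.2 CPM and 10.3 to 971 CPM in wild type, and Folr1 was at 0 in KC913RR. Prlr, the prolactin receptor, had 17.8, 16.4, 20.4, 21.7 and 13.9 CPM against 5.41, 4.56 and 6.64 CPM, so that the 2 ketogenic Gfap-high libraries, where Ttr was low, were also above the Gfap-low ones. The thalamus list had 0 of 10 higher and 1 lower (Lhx2), and the endothelial and mural list 2 of 15 higher (Vwf and Cldn5). Both stand beside 5.51% of all tested genes higher and 5.49% lower. The part of choroid plexus in the differences of its own genes was not tested.

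The Gfap-high libraries were not alike among themselves. KC913RR, on the ketogenic diet, had 79 genes at least 2-fold above all other 15 libraries, against 34 in KC872RL, 11 in KC873RR, 1 in KC893RL and 0 in KC934R. The genes in this paragraph were chosen after their values were seen, as those of the largest gap. In KC913RR they were led by Ptx3, a soluble pattern recognition protein of the A2 list, with 37.5 CPM against a next highest 1.96, and Lif, a cytokine of the interleukin-6 family, with 12.98 against 1.12. The small heat shock gene Hspb1 had 20.8 CPM against 3.88. The same library had the highest Socs3, an inhibitor of cytokine signalling, with 3.67, 2.21, 2.09, 18.3 and 1.16 CPM against 0.9198, 1.496 and 1.41 CPM, and the highest Inhba, an activin subunit, with 5.58, 3.96, 4.76, 33.1 and 6.57 CPM against 5.95, 3.37 and 3.7001 CPM. Its activity genes Fosb and Homer1 were also the highest of the 16, with 9.31, 8.39, 6.597, 48.2 and 6.46 CPM of Fosb and 86.6, 85.8, 92.7, 294 and 105 CPM of Homer1 over the Gfap-high libraries.

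In KC872RL the leading genes were of cell division (Pbk 6.04 against 1.16 CPM, Ckap2 7.04 against 1.40 and Top2a 19.1 against 4.97) and of immature oligodendrocytes (Gpr17 387 against 113 CPM, Bmp4 15.5 against 3.87 and Nkx2-2 14.3 against 4.10). In KC873RR they were Mir6236, with 63.2 against 10.97 CPM, Lars2, with 905 against 161 CPM, and Rn7sk, with 6.70 against 2.06 CPM, which are short, repeat-like or noncoding features or, for Lars2, a mitochondrial leucyl-tRNA synthetase gene, and then C3, with 7.92 against 3.67 CPM. What these features mean for the RNA of KC873RR was not tested. Of the Gfap-low libraries KC888LL had 1 such gene (Adora2a, 5.46 against 2.09 CPM), KC916RRL 0 and KC935LL 2 (the cerebellar genes Cbln3 and Pcp2).

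The 2 diets could be compared for the same split. On the standard diet (3 libraries against KC888LL) 429 genes were higher and 142 lower by at least 2-fold without overlap (2.46% and 0.813% of all tested genes), and on the ketogenic diet (2 against 2) 314 and 255 (1.80% and 1.46%). The higher genes shared by both were 82, which is 19.1% of the standard and 26.1% of the ketogenic list, and the lower ones 30, which is 21.1% and 11.8%. A further 13 genes went in opposite directions. Cholesterol synthesis genes, which SREBP2 switches on when sterols are low, went apart: 0 of 20 were without overlap, and the median was -0.31 on the standard and 0.79 on the ketogenic diet. Hmgcs1 had 219, 126, 225, 439 and 463 CPM against 252, 188 and 226 CPM. The 2 Gfap-high ketogenic libraries were the highest of all 8 knockout libraries for it, and KC873RR the lowest.

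**Figure D5:**
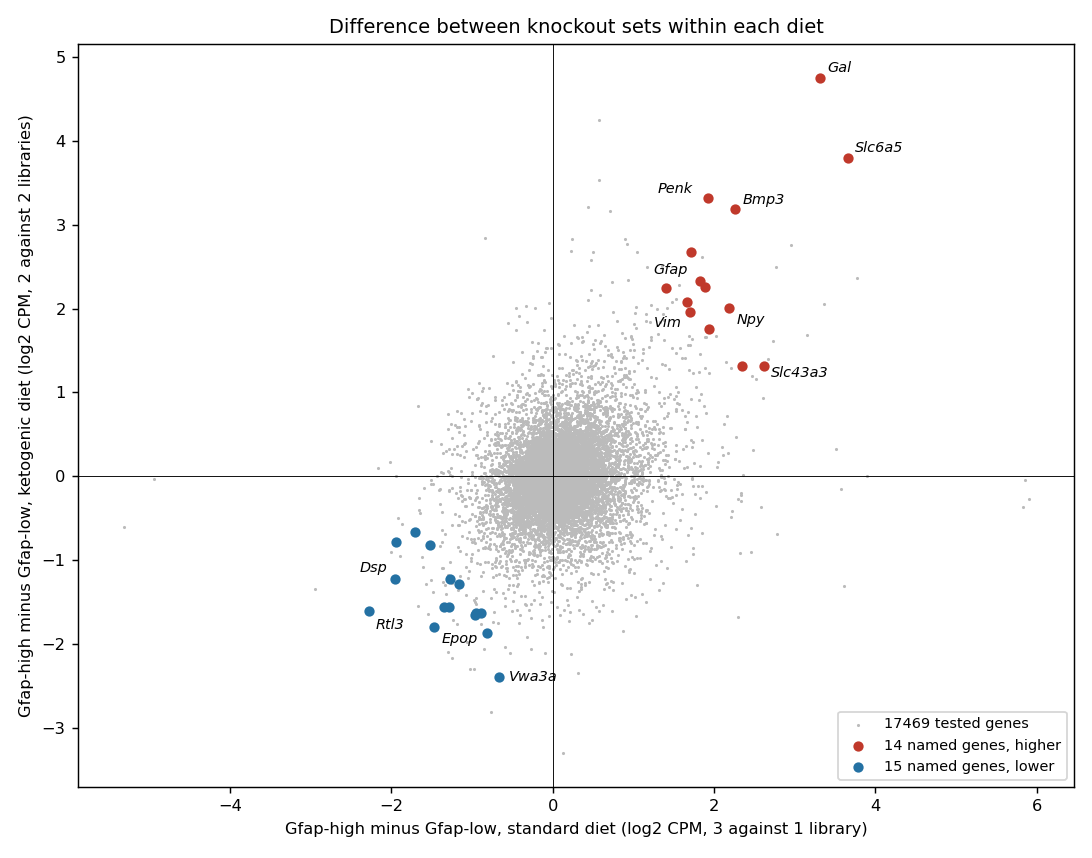
Difference between the Gfap-high and Gfap-low knockout libraries within the standard diet (horizontal, 3 against 1 library) and within the ketogenic diet (vertical, 2 against 2), in log2 CPM, for 17469 genes (grey) and the named genes (red higher, blue lower). The named genes were chosen to have the same sign on both diets. Gal and Slc6a5, which passed the minimum level only through the Gfap-high set, lie far out on both axes. The points past 5 on the horizontal axis are Y-linked genes.

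The genotype itself was tested on labels that do not use Gfap, as knockout against wild type over both diets in all 16 libraries (edgeR quasi-likelihood test with Benjamini-Hochberg adjustment). At an adjusted p under 0.05, 17 genes (0.0973% of 17469) were called, 13 higher and 4 lower, and 2767 had an unadjusted p under 0.05. Kcna1 was the gene of smallest p (log2 fold change -1.26 ± 0.11 SE, adjusted p = 0.000111), and the others of smallest p included Gapdh (0.33 ± 0.04, adjusted p = 0.0026), Gm45869 (0.94 ± 0.13, adjusted p = 0.00443), Ncapd2 (0.60 ± 0.09, adjusted p = 0.0101), Fxyd7 (-0.81 ± 0.13, adjusted p = 0.0223) and Pianp (-0.45 ± 0.08, adjusted p = 0.0363). Of the 26 lists only Vwf, von Willebrand factor of endothelial cells (1.47 ± 0.20, adjusted p = 0.0101), was called, and it lies near Kcna1 (chr6:125546774-125686679). Of the 16 called genes other than Kcna1, 7 lie on its chromosome and 6 within 2 Mb of it, where 77 of the 17469 tested genes lie, Gapdh, Gm45869, Ncapd2, Pianp and Vwf among them. The part of that closeness in these calls was not tested. Vwf also separated the sets, with 42.8, 34.8, 33.7, 45.4 and 34.4 CPM against 18.4, 23.9 and 26.8 CPM, but here every knockout library, Gfap-low ones included, was above the wild type range of 7.33 to 15.03 CPM.

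Of the 30 named genes 0 were called for genotype. An unadjusted p under 0.05 was found for 19 of them and for 2767 of all 17469 tested genes. The 30 were chosen for their differences among the same knockout libraries, and Gfap set the split. The count of 19 and the values below are therefore fixed in part by that choice. Gfap gave 1.61 ± 0.46 (adjusted p = 0.145), Penk 2.10 ± 0.53 (adjusted p = 0.116), Npy 1.81 ± 0.46 (adjusted p = 0.115), Gpnmb 1.83 ± 0.39 (adjusted p = 0.0888) and Npas4 -1.32 ± 0.27 (adjusted p = 0.0882), as log2 fold change and SE in edgeR. With the library KC888LL left out, 880 genes were called in place of 17. That 16 of the 30 were then among the calls is fixed in part by their choice, which used KC888LL as a Gfap-low library. Without KC916RRL 128 genes were called and without KC935LL 60, while without KC893RL there were 6. DESeq2 on all 16 libraries called 416, of which 12 were named genes, Gfap included. That count too is fixed in part by the choice of the named genes.

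Diet within the knockout was tested in the same fit. At an adjusted p under 0.05, 202 genes (1.16%) were called, 36 higher and 166 lower on the ketogenic diet, and 0 of the 30 named genes were among them. Called genes of smallest p were Cbs (0.49 ± 0.09, adjusted p = 0.0144), 4921539H07Rik (1.10 ± 0.20, adjusted p = 0.01497) and Stra6 (0.90 ± 0.17, adjusted p = 0.0168) in the higher direction, and Adamts4 (-0.97 ± 0.11, adjusted p = 0.00103) and Hbb-bt (-2.45 ± 0.31, adjusted p = 0.00207) in the lower one. None of these separated the Gfap sets without overlap. Of the oligodendrocyte list 10 of 14 genes were called lower. The count was 7 with Xist as a covariate and 28 to 1096 with 1 library left out, lowest without KC872RL and highest without KC888LL. Gfap differed between the diets by an amount that was not called (adjusted p = 0.84).

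Libraries that the split did not use gave a check of co-variation. Across the 8 wild type libraries, with diet as a covariate, 0 of 16631 genes (0%) had a slope on log2 CPM of Gfap with an adjusted p under 0.05 in edgeR, 728 had an unadjusted p under 0.05, and DESeq2 called 22. Gfap covered only 294 to 390 CPM in these animals. Among the named genes 3 had an unadjusted p under 0.05: Vim had a slope of 1.20 ± 0.37 (log2 units per log2 unit of Gfap, adjusted p = 0.873), Rasd1 of 1.27 ± 0.40 (adjusted p = 0.89), and Bmp3 of -3.32 ± 0.60 (adjusted p = 0.179). For Bmp3 and Rasd1 these signs are opposite to those of the Gfap-high against Gfap-low differences. The wild type library with the lowest Gfap, KC900RLL, had 16.7 CPM of Bmp3, and the other wild type libraries had 4.69 to 8.43 CPM. Without KC846L 35 genes were called.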

How the data were processed

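Hippocampal RNA of 16 mice was sequenced. The authors deposited raw counts per Ensembl gene for 49315 genes, 1 column per animal. Per the submitters' processing notes mm10 and DESeq2 were used. The aligner, counter, annotation and use of strand are not given in the sources used here, so genes with antisense or overlapping neighbours are uncertain. Positions are those of GENCODE M21 on GRCm38 (mm10), which held 48970 of the identifiers.

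Columns carry an animal tag, genotype and diet but no replicate number, so each was assigned to its group only and p-values measure the spread between these animals. Genes passing filterByExpr (17469) were scaled with TMM factors, with a prior count of 2 on the log2 CPM scale. Contrasts were tested in R 4.3.3 with edgeR 4.0.16 (robust quasi-likelihood F test, two-sided, 12 residual degrees of freedom, Benjamini-Hochberg adjustment over all tested genes). The models were tested on simulated data. The 15 genes named in each direction do not overlap between the sets, average at least 2 CPM over the knockout libraries, have 1 sign on both diets and are not predicted genes. List genes are mainly the 4 of largest difference in a list, and the 3 called genes of smallest p per direction are named for each labelled test. A few genes that these rules name are not reported here. Genes of single libraries, and list genes given because they overlap, were chosen after their values were seen. The members and lists were chosen with earlier results of these data known. Alternatives were other scalings, filters, prior counts, folds and Gfap thresholds, single diets, DESeq2 1.42.0, limma-voom (limma 3.58.1), a term for Xist, and leaving out single libraries.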

Additional observations from a re-analysis of the deposited data

Results flagged for a closer look

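Sets of 4 libraries were examined only in the knockout on each diet, for the named genes, Kcna1 and the list scores. Of 114 such sets, 4 held a library that stood apart from the other 3 by Dixon's criterion, which chance gives in about 1 in 20 sets. KC888LL, the library labelled knockout with intermediate Kcna1, accounted for 3 of these, all among the standard diet knockouts. KC888LL had 82.0 CPM of Kcna1 against 44.6 to 47.0 in the other 3 libraries, 4.71 CPM of Drd1 against 16.1 to 19.5, and 0.703 CPM of Cd1d1 against 2.39 to 2.73. Drd1 and Cd1d1 were named for their difference between the Gfap sets, and KC888LL is the Gfap-low library of that diet. The fourth was KC913RR on the ketogenic diet, whose cytokine signalling score was 4.56 (mean log2 CPM) against 3.54 to 3.62.

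For 3 of the 26 lists every Gfap-high library lay on one side of the Gfap-low libraries on the standard diet and on the other side on the ketogenic diet. With 3 libraries against 1 and 2 against 2, chance alone is expected to give this in some lists. The choroid plexus score was higher by 1.72 on the standard diet and differed by -0.57 on the ketogenic diet. The striatum score differed by -0.27 on the standard and 0.47 on the ketogenic diet, and the cholesterol synthesis score by -0.28 and 0.76. These differences between diets were not tested.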

How the results depend on the processing

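No paired analysis was possible because the columns carry no replicate numbers. The counts of genes separating the sets (147 higher, 46 lower) depended on the settings. They were 236 and 89 with a filter of at least 1 count in some library, 86 and 19 with at least 10 counts in every knockout library, 380 and 161 at 1.5-fold, 17 and 1 at 4-fold, 314 and 255 on the ketogenic diet only, 429 and 142 on the standard diet only, and 64 and 29 with a Gfap minimum of 1000, which moves KC893RL to the low set. Without the libraries with Y-linked expression there were 163 and 86. With 1 library left out they ranged from 136 to 245 (highest without KC888LL) and from 52 to 79 (highest without KC916RRL, 72 without KC888LL). The direction of the named genes is fixed by their choice under single diets and with libraries left out, so that it is no sign of stability, and 24 of their 533 alternatives moved the difference by more than the spread between libraries. Of 469 alternatives for list medians, including the pan-reactive list without Gfap (1.29), which was chosen after seeing the data, 46 in 13 of the 26 lists changed the sign. For 1 of these the main median was larger than the spread between libraries (A1 reactive astrocytes, 0.48 against -0.031 on the ketogenic diet). Among the others were choroid plexus (0.86 against -0.56 on the ketogenic diet, and 0.22 without the libraries with Y-linked expression), cholesterol synthesis (0.18 against -0.31 on the standard diet, and 0.52 without those libraries), striatum (0.13 against -0.28 on the standard diet), homeostatic microglia (0.31 against -0.09 on the ketogenic diet) and blood (0.48 against -0.19 without those libraries). Leaving out 1 library moved the median by over 1.5 times in 20 of the 26 lists.

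Genotype calls (17) were 71 with at least 1 count, 9 with at least 10 counts in every library, 416 with DESeq2 and 6 to 880 with 1 library left out. Diet calls in the knockout (202) were 677 with DESeq2, 7 with Xist as a covariate and 28 to 1096 with 1 library left out. Slope calls in wild type (0) were 98 with at least 1 count, 22 with DESeq2 and 0 to 35 with 1 library left out. The genotype fold change reversed for Ngb with limma-voom (-0.12) and with libraries left out (-0.26 to 0.22), and for Gpc3 (-0.35 to 0.042), 2 genes with values near 0. Apart from the fewer libraries or genes that an alternative uses, the cause was not tested. Other scalings moved the median of all genes by less than 0.01. Genes under 1 CPM rest on few counts per library.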
